A study of Mus musculus with 18 samples.

Results

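The genes described here make and copy DNA. They are 38 genes of DNA replication and nucleotide synthesis, chosen by symbol from the 20825 genes of a mouse kidney RNA sequencing table, and all 38 were found in it. Kidneys came from C57BL/6 mice at postnatal week 11 that had unilateral ischemia and reperfusion (UIR) or a sham operation. In UIR mice the vessels of the right kidney were clamped for 45 minutes and then released, and the left kidney was not touched. Tissue was taken 1, 3 and 21 days later, with 3 libraries labelled as biological replicates in each of 6 groups: UIR at day 1, UIR at day 3, UIR at day 21, and sham at the same days. The labels name neither the kidney that was sequenced nor the sex of the mice.

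A cell copies its DNA in S phase. Origins are first marked and loaded with the MCM helicase (licensing), the helicase is then switched on, and polymerases held by the sliding clamp PCNA copy both strands from nucleotides that are made at the same time. Most of these genes are known to be switched on together by E2F transcription factors as a cell leaves the resting state, and tubule cells of the adult kidney, which seldom divide, are known to re-enter the cell cycle after ischemia.

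Promoters of 32 of the 38 genes were found in the RefSeq promoter table (GRCm38.p6), in 37 windows of 250 bases before and 50 bases after a gene's start. An E2F-type motif (TTTCCCGC, TTTCGCGC, TTTGCCGC or TTTGGCGC, on either strand) stood in 37.84% of these windows, against 3.62% of the 14526 windows of genes that passed the filter on expression. With only TTTCCCGC and TTTCGCGC counted, the shares were 29.73% and 2.66%. A CCAAT box (CCAAT, on either strand), the binding motif of the factor NF-Y, stood in 56.76% of the windows of the 38 genes and in 37.24% of those of filtered genes. The motif forms share letters and can overlap each other. By role, an E2F-type motif was present for 7 of 9 licensing genes, 3 of 5 polymerase genes, 2 of 7 clamp and joining genes, 1 of 3 helicase activators, 1 of 3 chromatin genes and 0 of 5 nucleotide synthesis genes. Windows of Mcm4, Gins1, Gins2, Rfc2, Prim2 and Pole were not analysed here. Shown, with the motifs in capitals, are the 250 bases before the start of the 3 genes with the largest log2 fold at day 3. That scale is described below, and by the ratio of mean levels Chaf1b, Cdc6 and Orc1 ranked above Mcm5. The 3 genes shown came from nucleotide synthesis, chromatin and licensing. They are Rrm2 at chr12:24708004-24708253, Uhrf1 at chr17:56304063-56304312 and Mcm5 at chr8:75109259-75109508, all on the plus strand.
Rrm2: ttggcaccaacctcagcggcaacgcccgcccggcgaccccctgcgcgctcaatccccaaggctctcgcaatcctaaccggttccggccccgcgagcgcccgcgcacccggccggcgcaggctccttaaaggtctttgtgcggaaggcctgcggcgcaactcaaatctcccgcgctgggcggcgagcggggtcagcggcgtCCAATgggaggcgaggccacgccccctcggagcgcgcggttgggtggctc
Uhrf1: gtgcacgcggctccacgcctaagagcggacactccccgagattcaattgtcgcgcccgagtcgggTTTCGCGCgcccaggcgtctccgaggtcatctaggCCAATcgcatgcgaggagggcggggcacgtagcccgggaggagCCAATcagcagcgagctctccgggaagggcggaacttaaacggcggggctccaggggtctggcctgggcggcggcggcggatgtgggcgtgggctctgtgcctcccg
Mcm5: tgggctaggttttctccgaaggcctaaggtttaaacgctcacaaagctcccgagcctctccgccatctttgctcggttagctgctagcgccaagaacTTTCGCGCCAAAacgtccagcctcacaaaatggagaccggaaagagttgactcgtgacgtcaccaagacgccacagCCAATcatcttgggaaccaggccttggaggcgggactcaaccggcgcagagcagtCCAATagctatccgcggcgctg
The Mcm5 stretch held 2 E2F-type motifs that overlap in 1 run of capitals, and 2 CCAAT boxes. The Uhrf1 stretch held 1 E2F-type motif and 2 CCAAT boxes. It precedes 1 of 2 starts that RefSeq gives for Uhrf1, and the window of the other, at chr17:56303087-56303386, held 3 CCAAT boxes and 0 E2F-type motifs. The start shown was chosen for its E2F-type motif, so that match was fixed by the choice. The Rrm2 stretch held 1 CCAAT box and none of the 4 E2F-type letter strings. A match is a string of letters and no binding was measured in these kidneys.

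Levels are FPKM, fragments counted on a gene, divided by its transcript length and by the mapped total of the library, as the authors deposited them. Differences are log2 folds of FPKM + 1 ± SE, UIR minus sham, tested with limma across 14716 genes and called at a Benjamini-Hochberg adjusted p under 0.05. This scale understates the change of genes with low FPKM, so linear ratios of mean FPKM are given where they help. The summed FPKM per library was 424207 to 549490, and no read counts are used, so depth in reads is unknown. Kidney markers were present in every group. Umod, made by the thick ascending limb, averaged 390 ± 64.3 to 1106 ± 209 FPKM in UIR kidneys and 612 ± 53.9 to 854 ± 51.5 FPKM in sham kidneys (SD, n = 3). The proximal tubule transporter Slc34a1 averaged 823 ± 350, 143 ± 49.2 and 105 ± 80.1 FPKM in UIR kidneys at days 1, 3 and 21, and 1051 ± 85.6, 2783 ± 164 and 3115 ± 224 FPKM in sham kidneys. On this marker the day-1 sham kidneys stood apart from the later sham kidneys, and day-1 results are also given against the later sham groups. In whole tissue, a change in the number of cells of a type and a change in RNA per cell cannot be told apart.

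The 38 genes summed to 229 ± 25.5, 1007 ± 97.5 and 340 ± 30.8 FPKM in UIR kidneys at days 1, 3 and 21, and to 176 ± 6.58, 141 ± 3.00 and 145 ± 6.78 FPKM in sham kidneys (SD, n = 3 each). At day 1 the genes were split, with 16 higher, 5 lower and 17 not called in UIR, where 28.5% of all genes tested were higher and 31.1% lower. At day 3 all 38 were higher, where 57.6% of all genes were. At day 21, 36 were higher, where 60.7% of all genes were. The median ratio of UIR to sham mean FPKM over the 38 genes was highest at day 3, with 1.19, 8.51 and 2.66 for days 1, 3 and 21.

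**Figure D1:**
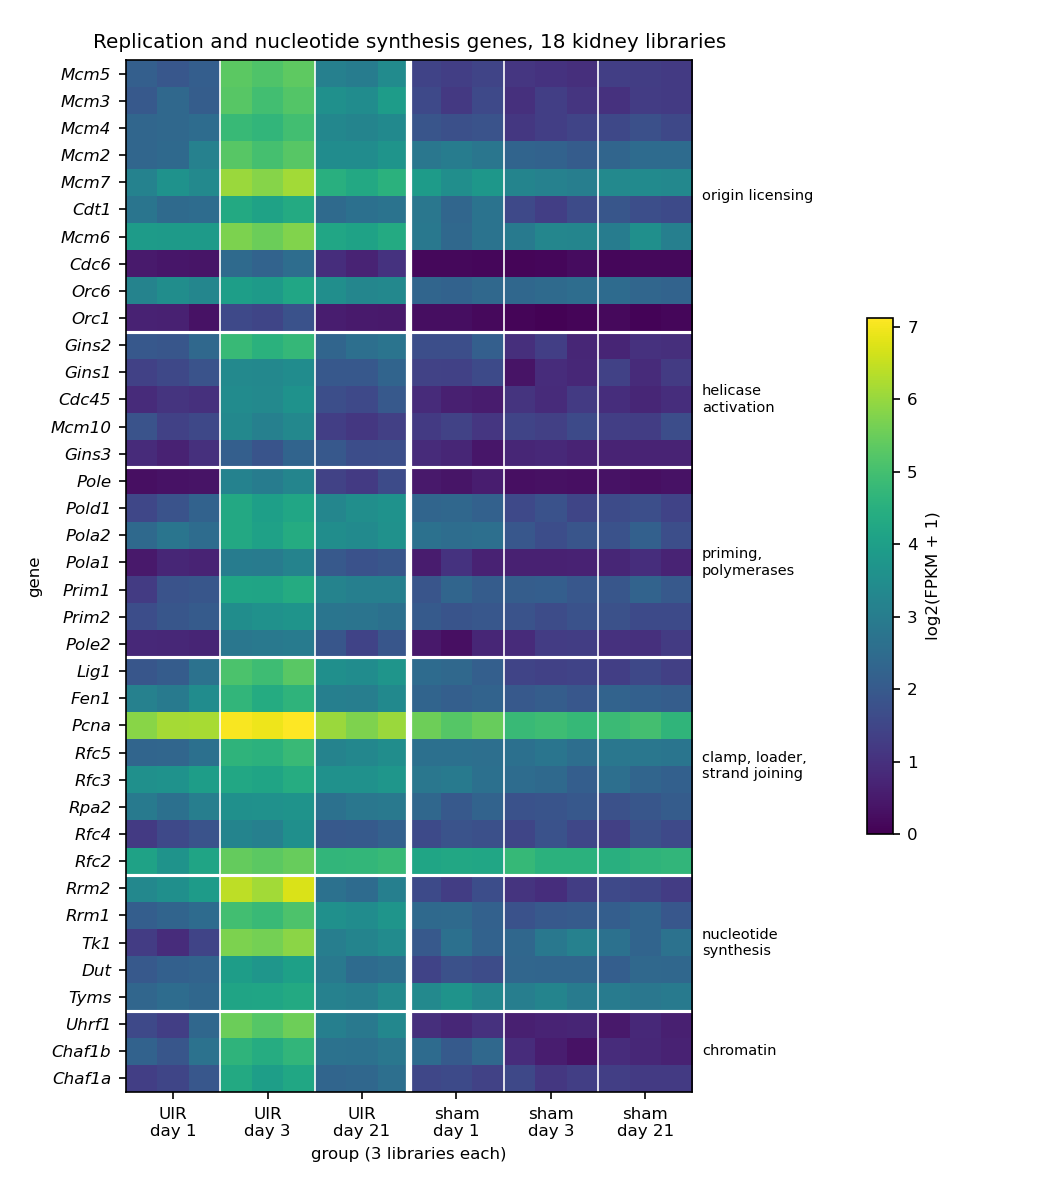
Level of each of the 38 genes, as log2(FPKM + 1) on the colour scale, in each of the 18 libraries, with UIR groups left of sham groups and genes grouped by role. The 3 UIR libraries of day 3 are the brightest block, and the summed level there was 1007 FPKM.

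At day 3, every one of the 38 genes was higher in UIR kidneys, with a median log2 fold of 2.48, a range of 0.80 to 5.33 and adjusted p of at most 7.5e-06. Increases were common in this comparison. Of all genes tested, 57.6% were called higher, and their median log2 fold was 0.44. In all 38 the 3 UIR libraries lay above the 3 sham libraries, which held for 59.3% of all genes. The mean FPKM was over 5-fold higher for 26 of the 38 genes and over 10-fold higher for 15. These 2 counts describe the 38 genes only, as the shares of all genes over these ratios were not computed. With median-of-ratios scaling the median of all genes was 0.02, 35.2% of genes were called higher and 34.0% lower, and the 38 genes remained higher with a median of 2.04 and a range of 0.28 to 4.92.

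Licensing genes had a median log2 fold of 2.81 at day 3. Mcm5, a subunit of the helicase ring, stood at 39.2, 34.6 and 40.1 FPKM in UIR kidneys, against 1.18, 1.07 and 0.94 FPKM in sham kidneys. Mcm3, another subunit, stood at 37.6, 30.3 and 36.1 FPKM in UIR kidneys, against 0.97, 1.48 and 1.13 FPKM in sham kidneys. The lowest UIR library was far above the highest sham library for both, and the log2 folds were 4.24 ± 0.11 and 4.03 ± 0.15 (adjusted p = 8.6e-14 and 3e-12). The ring subunits that were abundant in sham kidneys rose less: Mcm7 by 2.86 ± 0.12 and Mcm6 by 2.53 ± 0.15 on the log2 scale. Cdc6, which loads the ring onto DNA, stood at 4.55, 3.85 and 4.84 FPKM in UIR kidneys, against 0.06, 0.10 and 0.17 FPKM in sham kidneys. Its mean ratio was 40.1, yet its log2 fold was 2.28 ± 0.10 because of the added 1 FPKM. Orc1, a subunit of the origin recognition complex, behaved in the same way, with a ratio of 39.1 and a log2 fold of 1.55 ± 0.10. Orc6, the smallest subunit of that complex, was at 14.9, 13.7 and 17.6 FPKM in UIR kidneys, against 4.15, 4.46 and 4.85 FPKM in sham kidneys, a ratio of 3.43. Cdt1, the partner of Cdc6 in loading, had a ratio of 9.92.

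Helicase activators followed. Gins2, a subunit of the GINS complex that joins the ring, was at 26.9, 22.4 and 25.6 FPKM in UIR kidneys, against 0.94, 1.51 and 0.70 FPKM in sham kidneys. Its log2 fold was 3.68 ± 0.17 (adjusted p = 3.3e-11), while its partner Gins3 rose by 1.33 ± 0.13 and Gins1 by 2.70 ± 0.16. Cdc45, the other partner of the active helicase, rose by 2.42 ± 0.13, and Mcm10, which helps to start unwinding, by 1.78 ± 0.13. All 5 genes of this role were called higher, and none of their groups overlapped.

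All 7 priming and polymerase genes rose at day 3, with a median log2 fold of 2.39. Pole, the catalytic subunit of the leading strand polymerase epsilon, stood at 7.90, 6.94 and 8.42 FPKM in UIR kidneys, against 0.23, 0.26 and 0.22 FPKM in sham kidneys. Pold1, the catalytic subunit of the lagging strand polymerase delta, stood at 18.6, 15.2 and 17.6 FPKM in UIR kidneys, against 1.96, 2.45 and 1.80 FPKM in sham kidneys. Their ratios were 32.8 and 8.27, and neither gene's groups overlapped. Pola1 and Pola2, of the polymerase alpha that extends primers, rose by 2.39 ± 0.12 and 2.42 ± 0.13, and the primase subunits Prim1 and Prim2 by 2.18 ± 0.16 and 1.84 ± 0.10. Pole2, the second subunit of polymerase epsilon, rose by 1.76 ± 0.15.

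The clamp, its loader and the enzymes that join fragments had the lowest median of the 6 roles at day 3, at 1.97. Pcna, the sliding clamp, was the most abundant of the 38 genes in every group, at 130, 122 and 138 FPKM in UIR kidneys of day 3, against 27.1, 29.1 and 26.3 FPKM in sham kidneys. It rose by 2.2 ± 0.12 (adjusted p = 1.6e-10). Lig1, the ligase that seals the fragments, was the largest change of this role, with 33.4, 29.3 and 38.7 FPKM in UIR kidneys, against 1.74, 1.61 and 1.69 FPKM in sham kidneys. Fen1, which trims the flaps before sealing, rose by 2.56 ± 0.13. The clamp loader subunits Rfc3, Rfc4 and Rfc5 rose by 1.92 ± 0.13, 1.69 ± 0.16 and 2.02 ± 0.10. Rfc2, a subunit of the same loader, had the smallest change of all 38 genes, with 42.7, 39.3 and 43.5 FPKM in UIR kidneys, against 26.3, 22.3 and 22.2 FPKM in sham kidneys, a log2 fold of 0.80 ± 0.11 (adjusted p = 7.5e-06). Rpa2, a subunit of the complex that coats single-stranded DNA, rose by 1.74 ± 0.12.

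In nucleotide synthesis, Rrm2 led all 38 genes. It is the small subunit of ribonucleotide reductase, the enzyme that makes deoxynucleotides, and it stood at 84.6, 69.6 and 104 FPKM in UIR kidneys, against 1.10, 0.89 and 1.45 FPKM in sham kidneys. Its ratio was 75.2 and its log2 fold 5.33 ± 0.18 (adjusted p = 1.2e-12), which ranked 8 among 14716 genes. Rrm1, the large subunit, rose by 3.04 ± 0.13. Tk1, which salvages thymidine, was at 52.0, 48.6 and 58.0 FPKM in UIR kidneys, against 4.16, 6.21 and 7.74 FPKM in sham kidneys, and rose by 2.97 ± 0.20. Tyms, which makes thymidylate anew, was at 16.8, 17.3 and 19.1 FPKM in UIR kidneys, against 7.31, 8.27 and 6.80 FPKM in sham kidneys, and rose by 1.15 ± 0.11. Dut, which removes dUTP so that uracil is not built into DNA, rose by 1.58 ± 0.13. A pseudogene of Tyms in the same table had a mean of 0.20 to 0.64 FPKM in the 6 groups, and how reads were split between the 2 was not tested.

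The 3 chromatin genes had the highest median of the 6 roles at day 3, at 3.96. Uhrf1, which reads hemimethylated DNA behind the fork and brings in the methyltransferase Dnmt1, stood at 45.2, 36.7 and 45.8 FPKM in UIR kidneys, against 0.54, 0.63 and 0.67 FPKM in sham kidneys. Chaf1b, a subunit of the histone chaperone CAF-1, was at 23.7, 20.2 and 24.7 FPKM in UIR kidneys, against 0.87, 0.49 and 0.28 FPKM in sham kidneys. No UIR library came near the sham range, and the log2 folds were 4.75 ± 0.20 and 3.96 ± 0.18. Chaf1a, the large subunit of CAF-1, rose by 2.84 ± 0.15.

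**Figure D2:**
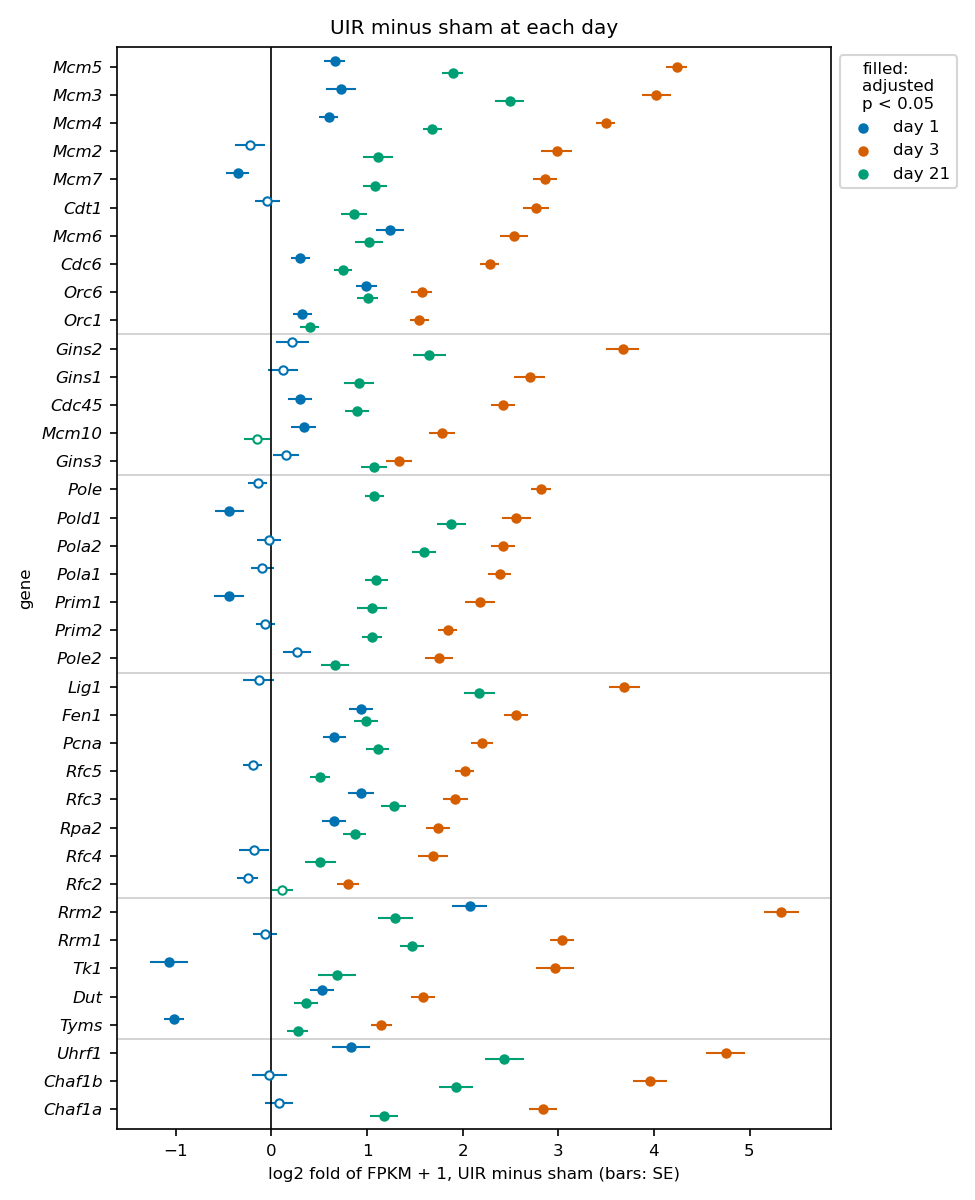
Log2 fold of FPKM + 1, UIR minus sham, for each of the 38 genes at days 1, 3 and 21 (points, with SE as bars, n = 3 libraries a group; filled points passed the threshold). Day 3 lies farthest right for every gene, from 0.80 for Rfc2 to 5.33 for Rrm2, and day 1 lies on both sides of 0.

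At day 1 the same genes had not moved together. Of the 38, 16 were higher in UIR kidneys and 5 lower, with a median log2 fold of 0.14. Of all genes tested, 28.5% were called higher and 31.1% lower, and their median was -0.03, and 59.6% of all genes were called in either direction, against 21 of the 38. The 3 UIR libraries lay above all 3 sham libraries for 15 genes and below them for 4, against 29.5% and 31.7% of all genes.

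Rrm2 was the largest early increase, at 9.05, 10.7 and 13.9 FPKM in UIR kidneys, against 2.03, 1.44 and 2.18 FPKM in sham kidneys, a log2 fold of 2.07 ± 0.18 (adjusted p = 1.4e-07). Mcm6 followed with 14.1, 13.6 and 13.8 FPKM in UIR kidneys, against 6.16, 4.29 and 5.53 FPKM in sham kidneys. Neither gene's groups overlapped. Licensing held 7 of the 16 increases, namely Mcm6 at 1.24 ± 0.15, Orc6 at 0.99 ± 0.11, Mcm3 at 0.73 ± 0.15, Mcm5 at 0.66 ± 0.11, Mcm4 at 0.60 ± 0.10, Orc1 at 0.32 ± 0.10 and Cdc6 at 0.30 ± 0.10. The clamp and joining genes held 4, namely Rfc3, Fen1, Pcna and Rpa2. Pcna was at 56.9, 71.1 and 71.2 FPKM in UIR kidneys, against 45.7, 36.6 and 42.9 FPKM in sham kidneys, and rose by 0.66 ± 0.12. Rfc3 and Fen1 both rose by 0.94 ± 0.13 and Rpa2 by 0.65 ± 0.12. Uhrf1 rose by 0.83 ± 0.20, Dut by 0.53 ± 0.13, Mcm10 by 0.34 ± 0.13 and Cdc45 by 0.30 ± 0.13. The size of the Uhrf1 increase rested on UIR replicate 3, without which it was 0.52 (adjusted p = 0.0055). The call of Mcm10 (adjusted p = 0.039) was lost without UIR replicate 1 or 3 (adjusted p = 0.19 and 0.054) or sham replicate 1 or 3 (adjusted p = 0.094 and 0.13). That of Cdc45 (adjusted p = 0.048) was lost without UIR replicate 2 or 3 (adjusted p = 0.14 and 0.089) or sham replicate 2 or 3 (adjusted p = 0.12 and 0.17), and that of Orc1 without UIR replicate 1 (adjusted p = 0.056).

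The early decreases included both routes to thymidylate. Tk1 was at 1.41, 0.88 and 1.74 FPKM in UIR kidneys, against 2.98, 5.15 and 3.72 FPKM in sham kidneys, a log2 fold of -1.07 ± 0.20 (adjusted p = 0.00024). Tyms was at 4.13, 4.75 and 4.17 FPKM in UIR kidneys, against 9.23, 11.6 and 8.87 FPKM in sham kidneys, a log2 fold of -1.02 ± 0.11 (adjusted p = 8.3e-07). All 3 UIR libraries were below all 3 sham libraries for both genes. No priming or polymerase gene was called higher, and Prim1 and Pold1 were lower, by -0.44 ± 0.16 and -0.44 ± 0.15. Mcm7 was lower by -0.35 ± 0.12. The calls of these last 3 genes did not hold with each library left out. Mcm7, Prim1 and Pold1 were all lost without UIR replicate 1 (adjusted p = 0.11, 0.15 and 0.13). Pold1 was also lost without UIR replicate 2 or sham replicate 1 or 2, Prim1 without sham replicate 2, and Mcm7 without UIR replicate 3 or sham replicate 1 or 3. The count of lower genes was 3 without UIR replicate 1, sham replicate 1 or sham replicate 2, and 8 without UIR replicate 3. A fit of the day-1 libraries alone called 2 lower, Tk1 and Tyms, and 26.9% of all genes lower.

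**Figure D3:**
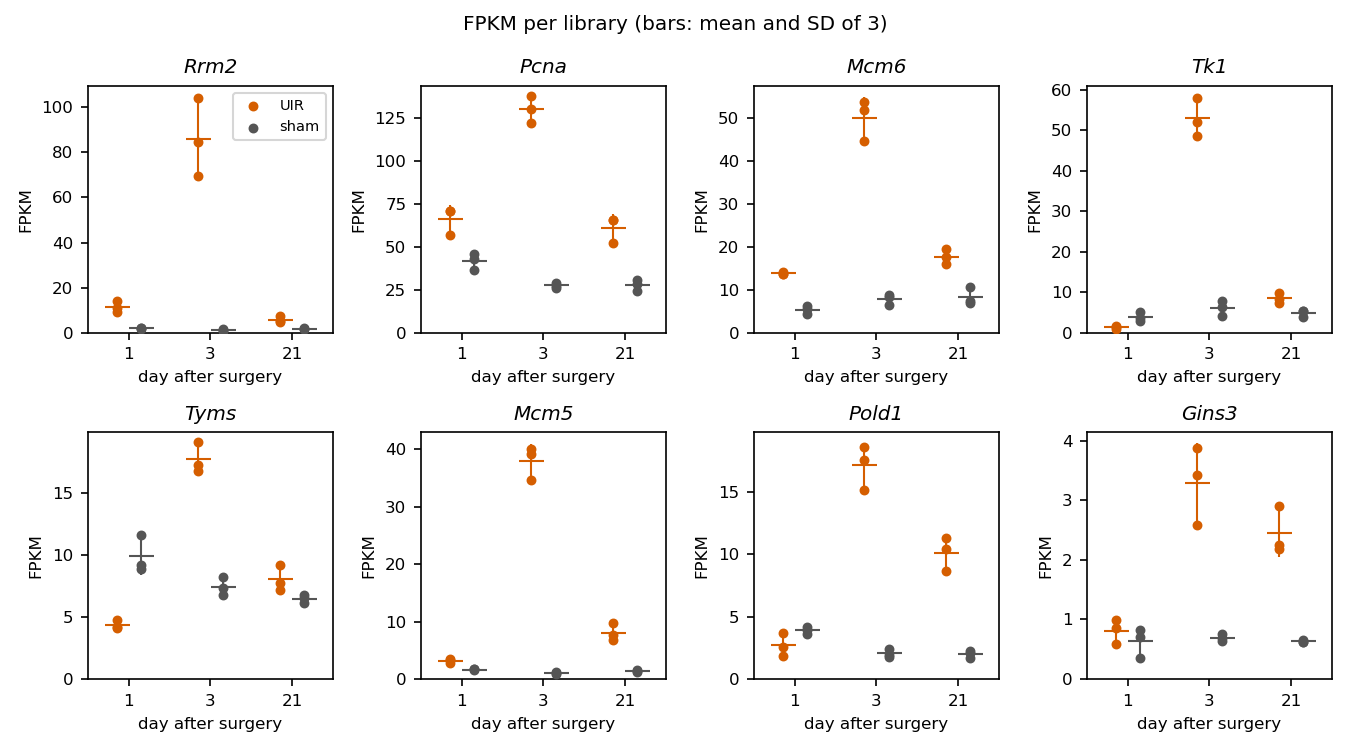
FPKM of 8 of the genes in each library by day, UIR left of sham, with the mean and SD of 3 libraries. Rrm2, Pcna and Mcm6 are above sham from day 1, Tk1 and Tyms are below sham at day 1, and Gins3 keeps most of its day-3 level at day 21.

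The control of day 1 was itself not level with later controls. Against the sham kidneys of days 3 and 21 together, day-1 sham kidneys had 17 of the 38 genes higher and 5 lower, where 31.9% and 14.1% of all genes were called. The largest differences were Chaf1b at 1.60 ± 0.16, with 4.60, 3.05 and 4.29 FPKM in day-1 sham kidneys against 0.28 to 0.87 FPKM in later sham kidneys, and Cdt1 at 1.01 ± 0.12. Lig1 was higher by 0.94 ± 0.14, Gins2 by 0.91 ± 0.15, Pola2 by 0.74 ± 0.11 and Pold1 by 0.70 ± 0.13. Dut was lower by -0.70 ± 0.11, Pole2 by -0.60 ± 0.13 and Mcm6 by -0.52 ± 0.13. Set against these later sham kidneys, UIR kidneys of day 1 had 22 genes higher and 6 lower, where 39.6% and 32.0% of all genes were called. Rrm2 at 2.32 ± 0.16, Tk1 at -1.45 ± 0.17 and Tyms at -0.57 ± 0.09 kept their direction and call with this control. Chaf1b was higher by 1.58 ± 0.16, although it did not differ from its own sham (-0.02 ± 0.18, adjusted p = 0.93). The mean FPKM of Mcm6 in UIR kidneys of day 1 was 2.59 times that of its own sham and 1.71 times that of later sham. The calls of Dut (-0.17 ± 0.11), Mcm10 (0.14 ± 0.12) and Cdc45 (0.02 ± 0.11) were not made with this control, nor those of Mcm7 (0.12 ± 0.11) and Pold1 (0.26 ± 0.13). These 2 comparisons share the later sham libraries.

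The signed difference, UIR minus sham, moved upward between days 1 and 3 for all 38 genes, by a median of 2.46 and a range of 0.58 to 4.04 on the log2 scale, where 50.1% of all genes were called in this direction and the median was 0.44. Tk1 gained most, at 4.04 ± 0.28 (adjusted p = 1.4e-08), followed by Chaf1b at 3.98 ± 0.25, Uhrf1 at 3.92 ± 0.28 and Lig1 at 3.82 ± 0.23. These gains also carry the change of the sham kidneys. From day 1 to day 3 the mean sham level fell from 3.98 to 0.55 FPKM for Chaf1b and from 4.14 to 1.68 FPKM for Lig1. For Uhrf1 it went from 0.90 to 0.61 FPKM, and for Tk1 it rose from 3.95 to 6.04 FPKM. The smallest gains were Orc6 at 0.58 ± 0.16, Rfc3 at 0.99 ± 0.19, Rfc2 and Dut at 1.05, and Rpa2 at 1.09 ± 0.17. Among these, Orc6, Rfc3 and Rpa2 were higher in UIR kidneys at day 1 against both their own and the later sham kidneys. Dut was higher only against its own sham. It averaged 3.43 ± 0.45 FPKM in UIR kidneys of day 1, against 2.07 ± 0.37 FPKM in sham kidneys of day 1, 4.05 ± 0.08 of day 3 and 3.93 ± 0.51 of day 21 (SD, n = 3 each). With median-of-ratios scaling it was called lower than in later sham kidneys (-0.28, adjusted p = 0.028). With median-of-ratios scaling the gain of Orc6 was 0.06 and was not called (adjusted p = 0.76).

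By day 21, 36 of the 38 genes were still higher in UIR kidneys and none was called lower, with a median log2 fold of 1.06. Of all genes tested 60.7% were higher and 20.1% lower, with a median of 0.53. In 36 genes the 3 UIR libraries lay above the 3 sham libraries, which held for 62.8% of all genes. The mean FPKM was over 2-fold higher for 31 of the 38, and the share of all genes over 2-fold was not computed. Mcm3 led with 10.9, 10.0 and 14.2 FPKM in UIR kidneys, against 1.01, 1.39 and 1.33 FPKM in sham kidneys, a log2 fold of 2.49 ± 0.15 (adjusted p = 4.2e-10). Uhrf1 stood at 7.39, 6.31 and 8.83 FPKM in UIR kidneys, against 0.39, 0.76 and 0.55 FPKM in sham kidneys. Lig1 was at 10.7, 10.0 and 12.2 FPKM in UIR kidneys, against 1.49, 1.92 and 1.53 FPKM in sham kidneys. None of these groups overlapped, and the log2 folds of Uhrf1 and Lig1 were 2.44 ± 0.20 and 2.18 ± 0.16. Chaf1b was higher by 1.93 ± 0.18, Mcm5 by 1.90 ± 0.11 and Pold1 by 1.88 ± 0.15.

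The smallest differences at day 21 were those of Mcm10 and Rfc2, which were not called, and of Tyms and Dut, which were. Mcm10 was at 1.5, 1.21 and 1.55 FPKM in UIR kidneys, against 1.48, 1.45 and 2.18 FPKM in sham kidneys (-0.15 ± 0.13, adjusted p = 0.30). Rfc2 was at 24.5, 25.1 and 26.6 FPKM in UIR kidneys, against 21.4, 24.0 and 25.0 FPKM in sham kidneys (0.12 ± 0.11, adjusted p = 0.35). Their groups overlapped. Tyms was higher by 0.28 ± 0.11 (adjusted p = 0.027) and Dut by 0.36 ± 0.13 (adjusted p = 0.015). Tyms lost its call without UIR replicate 3 (adjusted p = 0.14) or without sham replicate 2 or 3 (adjusted p = 0.083 and 0.051), and Dut without UIR replicate 1 (adjusted p = 0.092) or sham replicate 1 (adjusted p = 0.079). Median-of-ratios scaling moved the median of all genes to 0.01 and the shares called to 37.6% higher and 37.4% lower. With it 30 of the 38 genes were higher and 3 were lower, namely Mcm10 at -0.52, Rfc2 at -0.48 and Tyms at -0.27, and the median of the 38 was 0.55.

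Between days 3 and 21 the difference shrank for 37 of the 38 genes, by a median log2 change of -1.52, where 20.2% of all genes were called in this direction and the median of all genes was 0.06. The mean level in UIR kidneys of day 21 was a median of 34.7% of that of day 3, from 6.71% for Rrm2 to 74.3% for Gins3. It was under 25% for 11 of the 38 genes and over 50% for 7, and all genes were not counted in this way. In these shares the sham level is not subtracted. The excess of UIR over same-day sham at day 21 was a median of 21.4% of that at day 3. It ran from -4.19% for Mcm10 to 69.8% for Gins3. Rfc2 kept 60.8% of its level but 10.9% of its excess. Rrm2 had the largest drop, at -4.04 ± 0.26 (adjusted p = 2e-08), to 5.27, 4.66 and 7.42 FPKM in UIR kidneys, against 2.0, 1.8 and 1.4 FPKM in sham kidneys. Mcm5 dropped by -2.34 ± 0.15, Uhrf1 by -2.31 ± 0.28 and Tk1 by -2.28 ± 0.28. Gins3 kept 2.91, 2.19 and 2.25 FPKM in UIR kidneys of day 21, against 0.63, 0.62 and 0.65 FPKM in sham kidneys, and its change of -0.26 ± 0.19 was not called (adjusted p = 0.28). Pold1 kept 59.2% and Pola2 57.2% of the day-3 level, while Pole, of the other main polymerase, kept 21.6%. The call of Pold1 (-0.68 ± 0.22, adjusted p = 0.018) was lost without UIR replicate 1 of day 21 (adjusted p = 0.051).

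**Figure D4:**
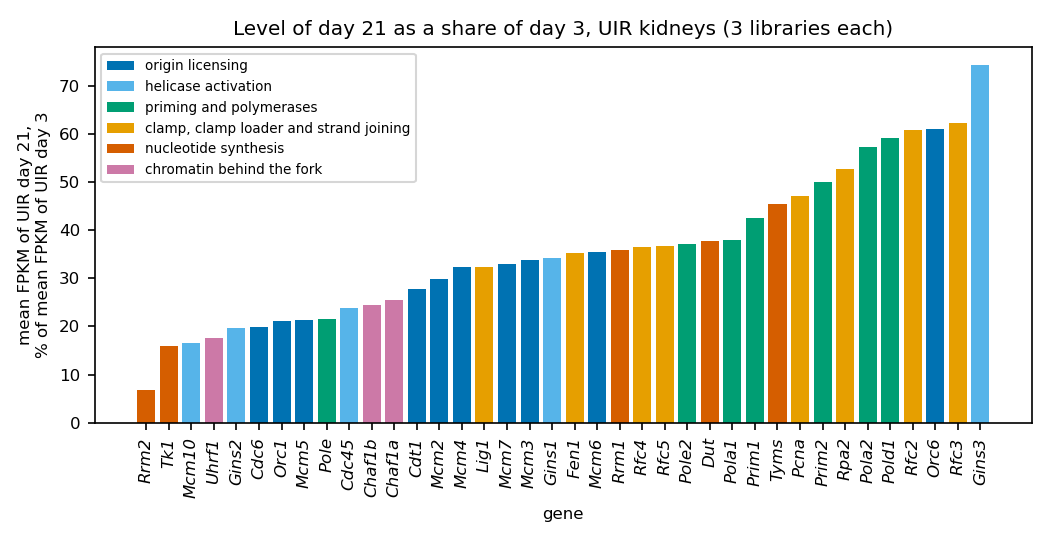
Mean FPKM in UIR kidneys of day 21 as a percentage of that in UIR kidneys of day 3, for each of the 38 genes, coloured by role (means of 3 libraries each). Bars run from 6.71% for Rrm2 to 74.3% for Gins3, and sham levels are not subtracted.

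Set directly against day 1, the signed difference, UIR minus sham, was higher at day 21 for 27 of the 38 genes and lower for 2, where 54.1% and 16.3% of all genes were called. The median was 1.00 for the 38 and 0.51 for all genes. Pold1 and Lig1 gained most, at 2.32 ± 0.22 and 2.31 ± 0.23. Part of both gains lay in the sham kidneys. Their mean level fell from 3.93 FPKM at day 1 to 2.02 FPKM at day 21 for Pold1, and from 4.14 to 1.65 FPKM for Lig1. For 2 of the 27, Tk1 (-1.07 at day 1 and 0.69 at day 21) and Tyms (-1.02 and 0.28), the difference turned from lower to higher and was smaller in size at day 21. The 2 that were lower at day 21 were those of Rrm2, at -0.78 ± 0.26 (adjusted p = 0.015), and Mcm10, at -0.49 ± 0.19 (adjusted p = 0.029). The call of Mcm10 was lost, leaving 1, without UIR replicate 1 or sham replicate 1 or 3 of day 1, or without UIR replicate 2 or sham replicate 3 of day 21. The other 9 genes were not called, namely Mcm6, Dut, Orc6, Fen1, Orc1, Rpa2, Rfc3, Rfc2 and Pole2, with differences of -0.22 to 0.39.

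Related genes outside the 38 were counted against the shares of all genes tested, which were 28.5% higher and 31.1% lower at day 1, 57.6% and 17.9% at day 3, and 60.7% and 20.1% at day 21. Of 39 further replication genes, 35 were higher and 0 lower at day 3, with a median of 1.26. Top2a, the topoisomerase that untangles copied DNA, was the largest at 5.11, followed by the PCNA-binding factor Pclaf at 4.45, the kinase activator Dbf4 at 3.06 and the ubiquitin ligase adaptor Dtl at 2.80. At day 1 the same list had 8 higher and 13 lower, near the shares of all genes, and nothing is read from these counts. The lower ones included Gmnn, the inhibitor of Cdt1, at -1.10, the nuclease Dna2 at -0.99, Rnaseh2c at -0.94 and the origin subunit Orc5 at -0.67, and the higher ones Dbf4 at 1.32 and the polymerase delta subunit Pold3 at 0.79. At day 21, 32 were higher and 2 lower, and the lower ones were Rnaseh2b at -0.76 and Gmnn at -0.36. Gmnn averaged 16.8 ± 3.06 FPKM in UIR kidneys of day 3, against 6.76 ± 0.52 FPKM in sham kidneys, and 4.62 ± 0.56 FPKM in UIR kidneys of day 21, against 6.19 ± 0.17 FPKM in sham kidneys.

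Of 30 further nucleotide synthesis genes, 21 were higher and 4 lower at day 3, with a median of 0.55, near the 0.44 of all genes. The largest increases were Cad, which starts pyrimidine synthesis, at 2.43, the deoxycytidylate deaminase Dctd at 2.35, the deoxycytidine kinase Dck at 2.2 and the CTP synthase Ctps at 2.15. Samhd1, which degrades deoxynucleotides and is known to be abundant in macrophages, was the largest increase of the list at day 21, at 3.03. At day 1, 6 genes of this list were higher and 13 lower, and at day 21 15 were higher and 8 lower. Against the shares of all genes given above, the counts at day 21 were near the background and nothing is read from them.

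Genes that govern and follow replication were also counted. Of 26 E2F, retinoblastoma and G1 cyclin genes, 23 were higher and 1 lower at day 3, led by the S phase cyclin Ccna2 at 5.09, E2f8 at 3.68, Myc at 3.33 and the cyclin Ccne1 at 2.68. At day 1 this list had 5 higher and 5 lower, which is below the background in both directions, and at day 21 22 higher and 0 lower. Of 12 chromatin assembly genes, 6 were higher at day 1 and 11 at both later days, with Asf1b at 3.76, Hells at 3.30, the maintenance methyltransferase Dnmt1 at 2.58 and Tonsl at 2.17 the largest at day 3. Of 20 replication checkpoint and repair genes, 3 were higher and 4 lower at day 1, 19 higher and 0 lower at day 3, and 17 higher and 1 lower at day 21, with a median of 1.91 at day 3. Of 16 mitosis genes, 1 was higher at day 1, Plk1 at 0.58, and all 16 at days 3 and 21, with medians of 4.26 and 1.54. Mki67, a marker of cycling cells, averaged 0.24 ± 0.09, 52.1 ± 7.53 and 6.07 ± 0.37 FPKM in UIR kidneys at days 1, 3 and 21, and 0.22 ± 0.07, 0.36 ± 0.07 and 0.41 ± 0.17 FPKM in sham kidneys. Of 7 CDK inhibitor genes, which hold the cycle back, 2 were higher and 1 lower at day 1 and all 7 were higher at days 3 and 21. Cdkn1a, which encodes the CDK inhibitor p21, averaged 337 ± 70.0, 66.4 ± 8.79 and 72.9 ± 8.58 FPKM in UIR kidneys at days 1, 3 and 21, and 54.5 ± 21.8, 3.45 ± 0.88 and 4.18 ± 0.92 FPKM in sham kidneys.

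Markers of other cell types were counted in the same libraries, and their part in the results was not tested. Of all genes tested, 28.5% were called higher and 31.1% lower at day 1. The shares were 57.6% and 17.9% at day 3, and 60.7% and 20.1% at day 21. Counts near or below these shares, such as those of neutrophil markers at days 3 and 21, are not read as changes of a cell type. The summed FPKM of 12 macrophage markers ran from 139 to 145, 351 to 857 and 3501 to 4909 in UIR kidneys at days 1, 3 and 21, and from 93.8 to 142, 59.9 to 68.2 and 56.9 to 70.1 in sham kidneys. All 12 were higher at days 3 and 21, and 3 were higher and 4 lower at day 1. The 9 T and NK cell markers summed to 2.44 to 3.45, 11.0 to 64.4 and 136 to 172 FPKM in UIR kidneys and to at most 9.44 FPKM in sham kidneys, with 0, 8 and 9 called higher. The 8 fibroblast markers summed to 29.7 to 41.9, 102 to 365 and 1036 to 1176 FPKM in UIR kidneys and to at most 54.1 FPKM in sham kidneys, with 0, 8 and 8 called higher. Neutrophil markers were highest in UIR kidneys of day 1, at 123 to 238 FPKM, against 23.5 to 75.5 FPKM in sham kidneys, with 7 of 7 tested higher at day 1, 3 at day 3 and 4 at day 21. Endothelial markers summed to 138 to 218 FPKM in UIR kidneys of day 3, against 93.5 to 184 FPKM in sham kidneys, with 1, 3 and 7 of 8 called higher and 3, 0 and 0 called lower at days 1, 3 and 21. Of 4 B and plasma cell markers tested, 0, 0 and 4 were higher and 1, 2 and 0 lower at days 1, 3 and 21. Of 4 erythroid markers tested, 0 were higher and 2, 3 and 2 lower at days 1, 3 and 21. No macrophage or fibroblast marker was listed at 0 in any library, while Cd3g and Gzma were at 0 in at least 1 UIR library of day 1. The 9 kidney markers summed to 1928 to 2982, 844 to 1144 and 542 to 986 FPKM in UIR kidneys, and to 2296 to 2670, 4300 to 4455 and 4448 to 4828 FPKM in sham kidneys, with 3, 6 and 6 called lower and 0, 1 and 2 called higher at days 1, 3 and 21. The sum of the 38 genes was highest in UIR kidneys of day 3, whereas the macrophage, T and NK cell and fibroblast sums were highest in UIR kidneys of day 21.

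**Figure D5:**
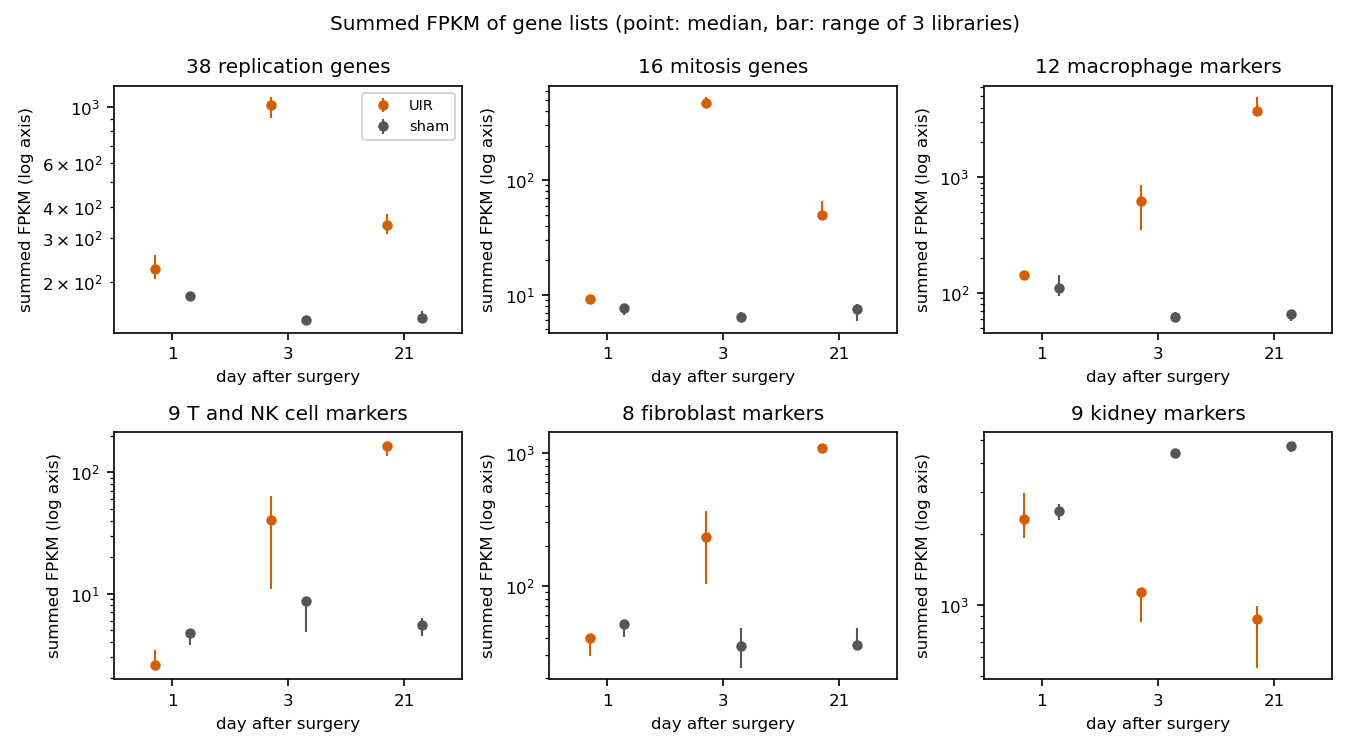
Summed FPKM on a log axis of the 38 replication genes and of 5 other lists by day, UIR left of sham (point, median; bar, range of 3 libraries). The replication and mitosis genes peak in UIR kidneys at day 3, at means of 1007 and 475 FPKM, and the macrophage markers at day 21, at a mean of 4044 FPKM.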

How the data were processed

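RNA of about 60 mg of kidney tissue per library was sequenced by the authors, who deposited FPKM values for 20825 genes in 18 libraries. Per the submitters' processing notes the build was mm9 and the tools were RSEM 1.2.12, HISAT2 2.0.4 and Bowtie2 2.2.5, with the role of each not given in the sources used here. The gene annotation at hand is of a newer build, so only promoter windows carry coordinates, from RefSeq GRCm38.p6. From the deposited FPKM values, genes with at least 1 FPKM in at least 3 of 18 libraries were kept (14716 genes, all 38 among them) and analysed as log2(FPKM + 1). limma 3.58.1 in R 4.3.3, with a variance trend and a mean per group, gave two-sided tests with Benjamini-Hochberg adjustment over all genes at a threshold of 0.05. The procedure was also run on simulated data in which few genes changed, as many up as down. That run says nothing on the broad shift of all genes at day 3. The libraries are labelled biological replicates, with no animal named. With 3 libraries a group, no exact permutation p can be lower than 0.1. No pair of libraries held identical values. Steps of the low values gave relative depths of 0.88 to 1.12 from 48 genes in all, which is too few to recover counts. The lowest, of sham replicate 3 of day 3, rested on 1 gene, and no library had more than 18.

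The 38 genes and the 15 lists (217 genes, 216 of them in the table, Pclaf matched by its gene ID) were chosen with earlier results of these data known. All 38 genes may be named. Of each list, up to 4 genes with the largest change in the direction of most of its members and up to 2 that moved the other way are named, and markers where their list is described. A few genes covered by this rule are not reported here. Alternatives were a pseudocount of 0.1, no filter, a mean of at least 5 FPKM, scaling each library to the same sum (TPM), median-of-ratios scaling, a replicate block, a fit of the compared groups alone, and leaving out each library.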

Additional observations from a re-analysis of the deposited data

Results flagged for a closer look

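The difference between UIR and sham was not the same at all days, by a test of the change itself (limma, adjusted over all genes). The signed difference, UIR minus sham, moved upward between days 1 and 3 for 38 of the 38 genes and downward for 0. Of all genes, 50.1% and 12.7% did so. Between days 3 and 21 it moved upward for 0 and downward for 37, against 26.1% and 20.2% of all genes. From day 1 to day 21 it moved upward for 27 and downward for 2, against 54.1% and 16.3%. With median-of-ratios scaling, 37 moved upward between days 1 and 3, against 26.9% of all genes. From day 1 to day 21 that scaling gave 20 upward and 6 downward, against 31.5% and 35.8%.

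A change of direction stood out for 5 genes that were lower in UIR kidneys at day 1 and higher at day 3. The change in log2 fold was 4.04 for Tk1, 3.21 for Mcm7, 3.00 for Pold1, 2.62 for Prim1 and 2.17 for Tyms. The day-1 calls of Mcm7, Pold1 and Prim1 were lost with single libraries left out, while those of Tk1 and Tyms were not. The decreases of Mcm7 and Pold1 also depended on the day-1 sham kidneys. Mean FPKM in UIR kidneys of day 1 was 1.11 and 1.33 times that of the later sham kidneys for these 2 genes. The same ratio was 0.70 for Prim1, 0.625 for Tyms and 0.246 for Tk1.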

How the results depend on the processing

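Counts of called genes among the 38 were computed under 7 alternatives and with each library left out, and 7 single values changed sign where either value was called, all under median-of-ratios scaling. In 47 further sign changes neither value was called, of which 34 came with a library left out, 11 with median-of-ratios scaling and 2 with TPM. Leaving out single libraries gave 3 to 8 lower and 14 to 15 higher genes at day 1, 38 higher at day 3 and 35 to 36 higher at day 21. For the signed change from day 1 to day 21 it gave 26 to 29 upward and 1 to 2 downward, and for that from day 3 to day 21 36 to 37 downward. For day-1 sham against later sham it gave 13 to 17 higher and 4 to 5 lower, and for UIR of day 1 against later sham 19 to 24 higher and 4 to 6 lower. Among genes with a mean of at least 5 FPKM, the change from day 1 to day 21 was downward for 1 and day-1 sham was lower for 3. Of all genes under that filter, 21.2% and 17.4% were. There 26 of the 38 genes were tested. The day-1 libraries alone gave 2 lower genes. TPM scaling gave 0 downward changes from day 1 to day 21. Median-of-ratios scaling gave 6 downward changes from day 1 to day 21 and 3 lower genes at day 21. Signs reversed with it at day 21 for Rfc2 (-0.48), Tyms (-0.27), Dut (-0.14) and Rfc5 (-0.038), and for the change from day 1 to day 21 of Orc6 (-0.57), Fen1 (-0.52) and Pcna (-0.20). That scaling divided FPKM by factors of 1.28 to 1.31 in UIR libraries of day 21 and 0.80 to 0.88 in sham libraries of day 21. Folds at day 21 are lowered by this division. What lies behind the factors was not tested. With median-of-ratios scaling all genes split at day 3 into 5124 higher and 4960 lower, against 8470 and 2634 without it, and with TPM into 10493 and 1954.

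The replicate numbers of the labels did not pair the libraries. The correlation of deviations of same-numbered libraries ran from -0.13 to 0.17 over 45 pairs, with 6 over 0.1, and 8 of 18 libraries correlated best with their own number. With the number as a block, 16 genes were higher and 5 lower at day 1, 38 higher at day 3 and 36 higher at day 21, as without it, and 16 in place of 17 were higher in day-1 sham. Depth in reads is unknown, so genes near 0 FPKM, such as Orc1, Cdc6 and Pole in sham kidneys, carry an unknown counting error.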

Other observations

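The balance between partners within a library, which no scaling of that library can change, was looked at after the values had been seen. Rrm2 over Rrm1, the 2 subunits of ribonucleotide reductase, was 2.70, 2.73 and 3.02 in UIR kidneys of day 1, against 0.46, 0.32 and 0.60 in sham kidneys. At day 3 it was 2.81, 2.53 and 3.04 in UIR kidneys, against 0.45, 0.30 and 0.47 in sham kidneys. At day 21 it was 0.49, 0.47 and 0.61 in UIR kidneys, against 0.60, 0.46 and 0.50 in sham kidneys, and the groups overlapped. The ratio was thus raised about equally at days 1 and 3 although the level of Rrm2 was far lower at day 1. An exact permutation test, two-sided, gave p = 0.1 at days 1 and 3, the smallest that 3 against 3 libraries allow, and p = 1.0 at day 21.

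The subunits of the MCM ring came closer to each other in level. The highest of Mcm2 to Mcm7 over the lowest was 4.15 to 4.79, 2.27 to 2.40 and 2.42 to 2.79 in UIR kidneys at days 1, 3 and 21, and 7.28 to 8.31, 8.13 to 8.94 and 6.88 to 9.20 in sham kidneys. The groups did not overlap at any day (exact permutation test, two-sided, p = 0.1 each). Tk1 over Tyms averaged 0.314, 2.98 and 1.05 in UIR kidneys at days 1, 3 and 21, and 0.395, 0.819 and 0.755 in sham kidneys (exact permutation test, two-sided, p = 0.4, 0.1 and 0.1). Pole over Pold1 averaged 0.104, 0.454 and 0.166 in UIR kidneys at days 1, 3 and 21, and 0.103, 0.115 and 0.132 in sham kidneys (exact permutation test, two-sided, p = 1.0, 0.1 and 0.3). Both ratios had groups without overlap at day 3, and at day 1 the groups of both overlapped.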
